A study of Homo sapiens with 16 samples.

Results

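Cardiomyocytes derived from human pluripotent stem cells (hPSC-CMs) that had spent Day 16 to Day 30 in HPLM/B27 were compared with the Day 16 RPMI/B27 cells they started from, in 4 total RNA libraries of each group. The comparison covered the 16227 genes, of 43388 listed, whose mean level over these 8 libraries reached 1 TPM (transcripts for each 1000000, a level per unit of transcript length). All cells were wild type and came from WTC11, an established induced pluripotent stem cell line, by the GiWi protocol, in which Wnt signalling is activated and then blocked. Cardiac progenitors expressing ISL1 were pooled, frozen, thawed and fed RPMI/B27, which is RPMI1640 with the B27 supplement, until Day 16. The Day 16 group was harvested there, and the other cells changed medium on that day. HPLM/B27 is human plasma-like medium, whose metabolites and salts follow human plasma, with the same supplement. The other Day 30 groups, of 4 libraries each, stayed in RPMI/B27 or moved to RPMI_glcM/B27, which is RPMI/B27 with glucose lowered to the 5 mM of HPLM. They shared the fit and give the Day 30 values set beside the members below. Age in culture and medium changed together between the compared groups, so their parts in any difference cannot be told apart. The libraries of a group came from separate wells of 1 line, the sources used here name no separate differentiations, and p-values therefore measure the spread between wells.

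The heart muscle cell of the early fetus divides, burns glucose, makes its own lipids and builds sarcomeres, the contractile units, from embryonic protein isoforms. Around birth it leaves the cell cycle, fills with mitochondria that burn fatty acids and enlarges its calcium store. It changes to the adult isoforms of myosin and troponin at different times. The myosin heavy chain switch begins early in gestation, the light chain switch comes later in the ventricle, and the troponin I switch spans birth. hPSC-CMs at the end of differentiation resemble the fetal state, and prolonged culture and medium composition are among the levers used to move them on.

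Each level below is a rescaled TPM, the deposited TPM divided by a factor for its library, and each log2 fold change is Day 30 HPLM/B27 over Day 16 RPMI/B27 on the log2(rescaled TPM + 1) scale with its SE. A gene was called, and is said to have risen or fallen, where its adjusted p in a limma fit was under 0.05. The libraries held 9801418 to 11269191 recovered reads at Day 16 and 9903935 to 12807127 in HPLM/B27. The factors were used because abundant RNAs differed in their share of TPM. The mitochondrial ribosomal RNA RNR2 took 41.4% to 43.9% of all TPM at Day 16 and 46.2% to 48.3% in HPLM/B27. The small nuclear RNA RN7SK took 8.76% to 10.4% and 10.7% to 12.3%. With mitochondrial, ribosomal and 7SK RNAs removed in place of the factors, 1155 genes were called higher and 2531 lower. Without the factors the median gene had a log2 fold change of -0.29 in place of -0.01, so for the change from Day 16 the counts on the TPM as deposited are given beside each list count that they alter. Of 313 called genes that a rule selected for naming, 84 lost their call on the TPM as deposited. The call of a single gene given without that value therefore need not hold there. Day 16 replicate 2 stood apart from the other 3 Day 16 libraries for many genes, among them TXNIP, ENO2 and COL2A1, and the totals of called genes without it were 1987 higher and 2004 lower. Between 20.3% and 38.8% of the exon bases of TNNI3, LDHB and TGFB2 lie under another annotated gene of the same strand, and of NPY6R, GJA5, NPPA, HAND2, IDH3A, DDIT3, SLC1A5, PRDX1 and SQSTM1 under one of the opposite strand, so reads of these genes may belong to either partner.

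In all, 4132 of the 16227 genes were called, or 25.5%. Of these, 2054 rose (12.7% of all genes tested) and 2078 fell (12.8%), and 3621 of the 4132 had no overlap between the 4 and 4 libraries. Over all genes tested, called or not, 27.9% had groups without overlap. The list counts below are to be read beside these shares. A rise of over 1 on the log2 scale was seen in 349 called genes and a fall of that size in 294, while 44 and 35 passed 2. The median size of a called change was 0.55 on the log2 scale, so most changes were modest. With deposited TPM, 480 genes (2.96%) were called higher and 3714 (22.9%) lower, which turns an even split into one of mostly falls. Levels of rare transcripts carry few reads. Under a mean of 10 recovered reads lay 1948 of the tested genes, of which 133 were called.

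**Figure D1:**
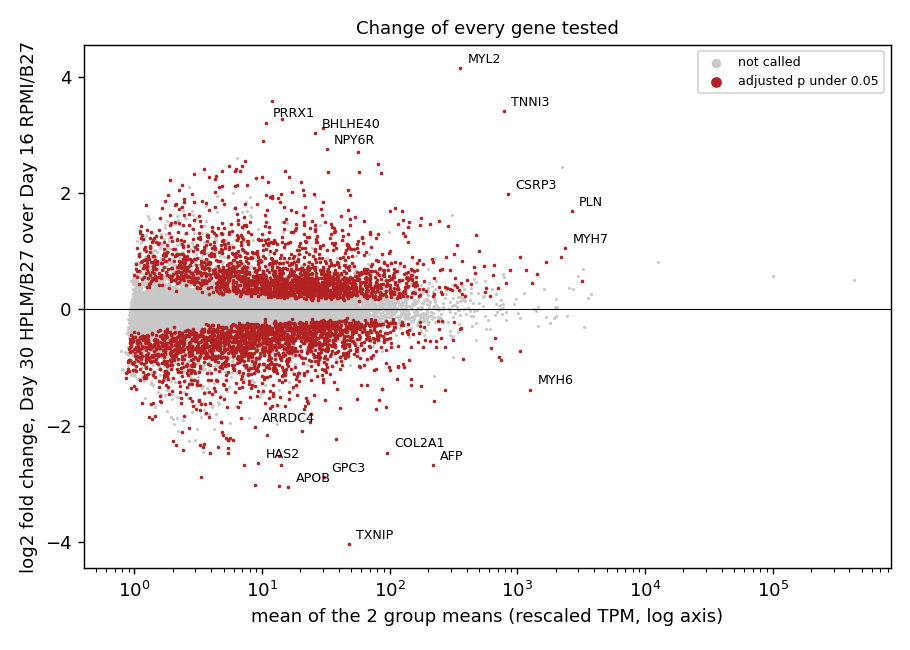
Each point is 1 of the 16227 genes tested, with the mean of its Day 16 and HPLM/B27 group means in rescaled TPM on a log axis and its log2 fold change on the other axis. Red points are the 4132 called genes, with MYL2 highest at a log2 fold change of 4.14 and TXNIP lowest at -4.04.

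Among called genes without overlap that reached 10 rescaled TPM in the higher group, the 15 largest rises included the sarcomere genes MYL2 and TNNI3. MYL2, the regulatory light chain of ventricular myosin, stood at 37.7, 28.8, 40.3 and 42.8 rescaled TPM in the 4 Day 16 libraries and at 715, 839, 523 and 644 in the 4 HPLM/B27 libraries. Its groups lay far apart, and its log2 fold change of 4.14 ± 0.14 (SE; limma adjusted p = 1.49e-10) was the largest on this scale. The 1 added to each level shrinks the changes of genes at low levels. In limma-voom on recovered reads C11orf21 rose more, by 4.71 against 4.19 for MYL2. TNNI3, the cardiac troponin I that replaces the slow skeletal form after birth, went from 129, 118, 144 and 146 to 1389, 1409, 1371 and 1541 rescaled TPM, a log2 fold change of 3.41 ± 0.09 (limma adjusted p = 1.42e-11). Both groups were compact, and the lowest HPLM/B27 library lay far above the highest Day 16 library.

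Transcription factors of several kinds were among the other large rises. PRRX1, a homeobox factor best known from limb and mesenchyme, stood at 1.03, 1.53, 1.33 and 1.19 rescaled TPM at Day 16 and 18.9, 16.4, 22.0 and 23.3 in HPLM/B27, a rise of 3.21 ± 0.15 on the log2 scale. BHLHE40 and BHLHE41, repressors that answer to low oxygen and to the circadian clock, rose together. BHLHE40 went from 2.23, 8.94, 7.88 and 2.67 to 42.6, 57.4, 52.0 and 33.2 rescaled TPM, and Day 16 replicates 2 and 3 were the higher libraries of their group. BHLHE41 went from 0.358, 1.57, 1.48 and 0.691 rescaled TPM to 8.90, 11.0, 12.9 and 7.42, with log2 fold changes of 3.03 ± 0.34 and 2.47 ± 0.25. Groups without overlap were required of both genes by the rule that picked them.

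Metabolic genes among these rises were NMRK2, a nicotinamide riboside kinase of muscle that feeds NAD synthesis, and ENO2, the gamma form of the glycolytic enzyme enolase. NMRK2 stood at 1.57, 1.66, 0.404 and 2.45 rescaled TPM at Day 16 and at 13.4, 11.7, 16.9 and 11.0 in HPLM/B27. ENO2 stood at 19.9, 47.5, 17.4 and 17.7 rescaled TPM at Day 16, where replicate 2 was far above the others, and at 129, 151, 133 and 133 in HPLM/B27. Their log2 fold changes were 2.55 ± 0.24 and 2.50 ± 0.28. The remaining large rises were of genes whose role in heart muscle is little known, such as SLC35F1, a solute carrier, with 1.69, 1.91, 1.34 and 1.71 rescaled TPM at Day 16 and 18.6, 19.3, 19.9 and 17.4 in HPLM/B27. NPY6R, a relative of the neuropeptide Y receptors, rose by 2.76 ± 0.11, the long non-coding RNA BANCR by 2.70 ± 0.18, C11orf21 by 3.59 ± 0.34, and the uncharacterised loci LOC107986558 and LOC101927613 by 3.27 ± 0.13 and 2.47 ± 0.20. Another such locus, LOC105369856, and the small nucleolar RNA SNORD115-5 rose by 2.41 ± 0.40 and 3.12 ± 0.59 from a mean of only 2.5 recovered reads at Day 16 each.

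The largest fall was that of TXNIP, an arrestin-like protein that holds back glucose uptake and is induced by glucose itself. TXNIP stood at 76.8, 137, 72.7 and 77.7 rescaled TPM at Day 16 and at 6.88, 2.69, 2.70 and 6.85 in HPLM/B27, a log2 fold change of -4.04 ± 0.33 (limma adjusted p = 6.96e-07). Day 16 replicate 2 was the highest library, and every HPLM/B27 library lay far below the lowest Day 16 library. ARRDC4, the arrestin-like relative of TXNIP that answers to the same glucose-sensing factors, fell alongside it from 12.9, 19.7, 12.9 and 13.5 to 2.66, 2.27, 2.47 and 4.16 rescaled TPM (-2.02 ± 0.20 on the log2 scale).

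A further group of large falls belonged to genes of the liver and of the gut endoderm. APOB, the protein of lipoprotein particles, went from 39.7, 18.3, 27.5 and 33.0 to 1.63, 3.64, 2.99 and 2.29 rescaled TPM. AFP, the serum protein of fetal liver and yolk sac, went from 460.1, 234, 329 and 489.5 rescaled TPM to 30.7, 84.3, 74.7 and 49.8, and was lower in replicate 2 than in the other Day 16 libraries. TTR and FGB, a thyroid hormone carrier and a fibrinogen chain of plasma, had log2 fold changes of -2.68 ± 0.30 and -2.51 ± 0.33. The rule that picked these 4 genes required groups without overlap, and the log2 fold changes of APOB and AFP were -3.05 ± 0.27 and -2.68 ± 0.31. How they move with the markers of a hepatic endoderm is given with the cell type markers below.

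Matrix and embryonic surface genes made up most of the other large falls. GPC3, a heparan sulfate proteoglycan of embryonic and fetal tissue, stood at 61.0, 51.0, 54.9 and 52.8 rescaled TPM at Day 16 and 6.30, 5.20, 9.79 and 5.72 in HPLM/B27. HAS2, which makes the hyaluronan of the cardiac jelly, stood at 19.5, 11.3, 19.2 and 17.3 rescaled TPM at Day 16 and 1.77, 2.22, 1.45 and 1.80 in HPLM/B27. COL2A1, a fibrillar collagen of cartilage and of the embryonic valve, stood at 156, 188, 153 and 152 rescaled TPM at Day 16 and 27.9, 27.5, 31.7 and 26.8 in HPLM/B27. GPC3, HAS2 and COL2A1, picked by the same rule, had log2 fold changes of -2.88 ± 0.16, -2.64 ± 0.17 and -2.47 ± 0.12. FREM2, a basement membrane protein, fell by 2.23 ± 0.14 on the log2 scale. CPXM1, a secreted carboxypeptidase-like protein, fell by 2.09 ± 0.17, and the uncharacterised locus LOC100506664 fell by 2.67 ± 0.22. The small nucleolar RNA SNORA11F fell by 2.17 ± 0.58 from a mean of 10.5 to 2.25 recovered reads. Another of these RNAs, SNORD56B, had a log2 fold change of -3.04 ± 0.87 on a mean of 8 and 1 reads, and its call was lost without HPLM/B27 replicate 1 or 3 (-2.54). The histone gene HIST1H4L had a log2 fold change of -2.25 ± 0.69 on a mean of 17.25 and 2.5 reads, and its call was lost without Day 16 replicate 3 (-2.10) or 4 (-1.87) or HPLM/B27 replicate 2 or 4 (-1.92).

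The sarcomere lists were read as the thick filament, the thin filament, and the Z-disc with titin and the M-band. Together they held 51 tested genes, of which 25 rose and 5 fell, with a median log2 fold change of 0.46 against -0.01 for all genes. The falls numbered 3 without Day 16 replicate 3 or HPLM/B27 replicate 2, and with deposited TPM 17 rose and 11 fell. In the thick filament 4 of 10 rose and 2 fell, with 4 and 4 on the TPM as deposited. MYH7, the slow myosin heavy chain that predominates in the human ventricle, stood at 1379, 1696, 1468 and 1621 rescaled TPM at Day 16 and 3655, 3126, 2826 and 3213 in HPLM/B27, a rise of 1.05 ± 0.13. MYH6, the fast heavy chain of the atrium, stood at 1827, 1438, 1884 and 2097 rescaled TPM at Day 16 and 828, 436, 737 and 840.5 in HPLM/B27. It fell by 1.38 ± 0.27 on the log2 scale, with HPLM/B27 replicate 2 the lowest library. MYBPC3, the cardiac myosin-binding protein that brakes the cross-bridge, rose by 0.77 ± 0.06, and MYH7B, a heavy chain of the same family, by 1.73 ± 0.16. MYLK3, the kinase that phosphorylates MYL2, fell by 1.04 ± 0.12, with 98.4 to 151 rescaled TPM at Day 16 and 57.2 to 71.1 in HPLM/B27.

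Thin filament genes rose in 7 of 16 cases and none was called lower (limma; 2 were lower at an unadjusted p under 0.05, and 1 in limma-voom on recovered reads or without Day 16 replicate 2). On the TPM as deposited 4 rose and 3 fell. LMOD3 and LMOD2, leiomodins that lengthen actin filaments, rose by 2.38 ± 0.20 and 1.28 ± 0.19. LMOD2, the cardiac form, stood at 296, 185, 324 and 311 rescaled TPM at Day 16 and at 725, 501, 742 and 716 in HPLM/B27. TNNT1, the slow skeletal troponin T, rose by 1.91 ± 0.33. TNNT2, the cardiac troponin T, stood at 2433, 1784, 2414 and 3426 rescaled TPM at Day 16 and 4747, 3229.7, 3385 and 4654 in HPLM/B27, with overlap between the groups and an adjusted p of 0.136 by limma. ACTC1, the cardiac actin, and TPM1, the tropomyosin of the heart, were not called either. ACTA1, the skeletal actin that the fetal heart also uses, stood at 71.8, 65.1, 91.6 and 88.7 rescaled TPM at Day 16 and 136, 412, 132 and 415 in HPLM/B27. HPLM/B27 replicates 2 and 4 were far above replicates 1 and 3. Its log2 fold change was 1.58 ± 0.53, and its call was lost on leaving out any Day 16 library (1.49 to 1.65) or HPLM/B27 replicate 2 (1.31) or 4 (1.30).

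At the Z-disc, the anchor of the thin filaments, 14 of 25 genes rose and 3 fell, with 9 and 4 on the TPM as deposited and 1 fall without Day 16 replicate 3 or HPLM/B27 replicate 2. CSRP3, the muscle LIM protein, stood at 336, 259.6, 378 and 392 rescaled TPM at Day 16 and 1396, 1110.0, 1393 and 1480.5 in HPLM/B27, a rise of 1.98 ± 0.15 (limma adjusted p = 4.10e-07). DES, which makes the desmin filaments that tie Z-discs together, went from 2.98, 2.28, 4.51 and 3.74 rescaled TPM to 18.1, 18.9, 14.7 and 23.3. XIRP2, an actin-bundling protein of the Z-disc and intercalated disc, went from 7.20, 4.06, 6.12 and 7.41 rescaled TPM to 30.7, 21.7, 27.2 and 32.2. These 3 genes separated the groups cleanly, and DES and XIRP2 rose by 2.18 ± 0.18 and 2.02 ± 0.19. FHL2, TCAP and CRYAB, which bind titin or desmin, rose by 1.70 ± 0.22, 1.53 ± 0.11 and 1.50 ± 0.16. TTN, the titin spring itself, rose by 0.46 ± 0.08 from 1093, 1091, 1090.0 and 1100.3 to 1334, 1457, 1559.5 and 1683 rescaled TPM, and on the TPM as deposited its log2 fold change was 0.12. ACTN2, the alpha-actinin of the Z-disc, stood at 734, 699, 749.6 and 752 rescaled TPM at Day 16 and 714, 685, 741 and 804 in HPLM/B27, a log2 fold change of 0.00 ± 0.11. It was called lower on the TPM as deposited, at -0.34. SYNPO2, a partner of alpha-actinin found also in smooth muscle, fell by 0.66 ± 0.08.

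Shares of paired isoforms do not depend on the library factors, because both genes of a pair are read in the same library. In 6 of 12 pairs the 4 HPLM/B27 shares all lay above the 4 Day 16 shares. An exact permutation test of 4 against 4 libraries (two-sided) then gave p = 0.0286, the smallest it can give, and 0.0571 after Benjamini-Hochberg adjustment over the 12 pairs, so no pair was called. MYH7 made 43.0, 54.1, 43.8 and 43.6% of the MYH7 and MYH6 sum at Day 16 and 81.5, 87.8, 79.3 and 79.3% in HPLM/B27. TNNI3 made 25.5, 24.9, 27.6 and 28.8% of the TNNI3 and TNNI1 sum at Day 16 and 69.1, 70.4, 71.9 and 74.6% in HPLM/B27, so that the cardiac form passed from the minor to the major troponin I. MYL2 made 1.11, 1.02, 1.11 and 1.05% of its sum with MYL7, the atrial light chain, and then 13.6, 17.0, 13.2 and 13.0%. MYL7 thus remained the larger part in every library. TNNI1 itself, the fetal form, rose by 0.62 ± 0.06 but was not called on the TPM as deposited (0.28). MYL7 was not called (0.26 ± 0.15).

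The other pairs at the smallest p were enzymes. CKM, the muscle creatine kinase, made 55.1, 57.4, 53.2 and 57.3% of the CKM and CKB sum at Day 16 and 75.3, 79.5, 78.6 and 73.5% in HPLM/B27. ENO3, the muscle enolase, made 17.6, 15.6, 17.7 and 16.4% of its sum with ENO1 and then 22.4, 20.3, 19.4 and 18.4%. HK2, the insulin-responsive hexokinase, made 18.5, 19.6, 20.6 and 19.9% of its sum with HK1 and then 25.9, 27.9, 34.3 and 27.1%. The remaining 6 pairs overlapped between the groups. Among them were the essential light chains MYL3 and MYL4, with 68.0, 68.2, 67.8 and 66.8% MYL3 at Day 16 and 65.0, 67.2, 66.1 and 60.8% in HPLM/B27, and the lactate dehydrogenases LDHB and LDHA, with 53.8, 55.1, 52.2 and 57.0% LDHB and 57.7, 53.9, 53.4 and 53.3%. MYH7 and MYH6 are alike in sequence, and how reads matching both were counted was not given in the sources used here.

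**Figure D2:**
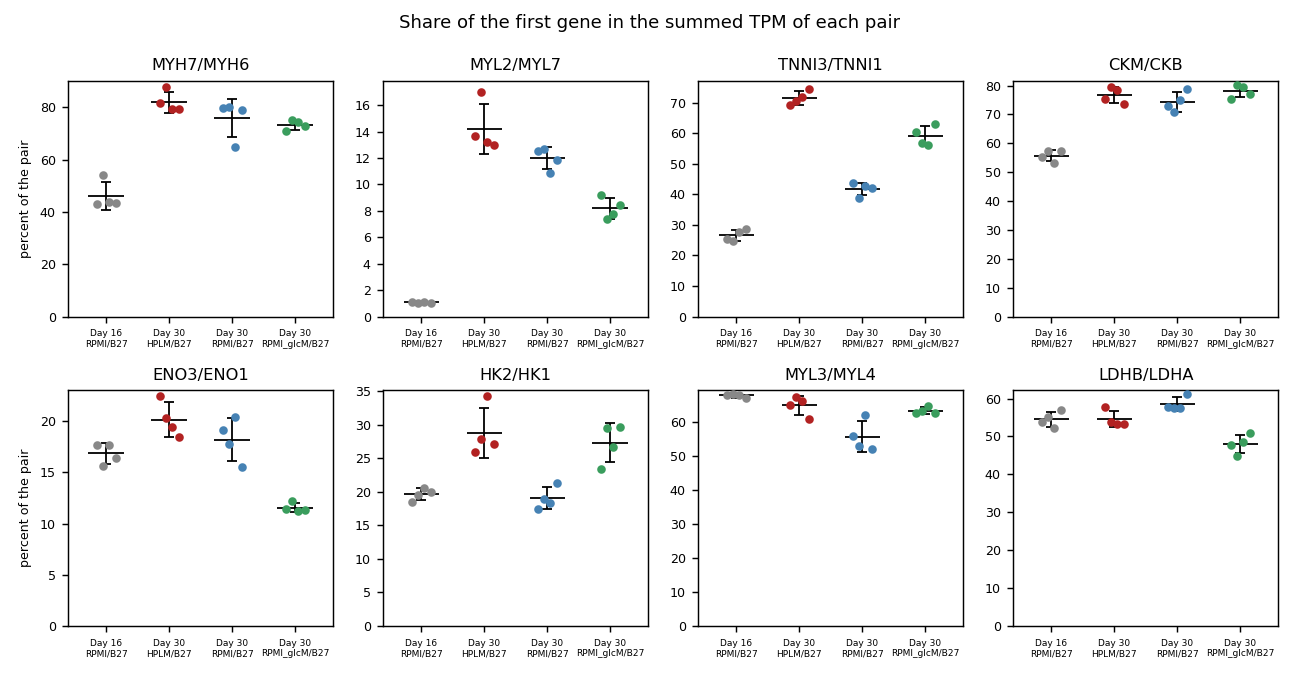
Each panel gives, for 1 of 8 isoform pairs, the percent of the pair's summed TPM taken by the first-named gene in every library (points), with the mean (bar) and SD (whiskers, n = 4) in the 4 groups. The TNNI3 share runs from 24.9% to 28.8% at Day 16 and from 69.1% to 74.6% in HPLM/B27, while the LDHB share overlaps between these groups.

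Calcium handling genes rose in 10 of 24 cases and fell in 1, with 6 and 3 on the TPM as deposited. PLN, phospholamban, which restrains the calcium pump of the sarcoplasmic reticulum until it is phosphorylated, stood at 1220.5, 1323, 1240.3 and 1272 rescaled TPM at Day 16 and 3709, 4068, 4632 and 3999.9 in HPLM/B27. The Day 16 libraries lay within a narrow band, and the rise was 1.69 ± 0.11 (limma adjusted p = 6.95e-08). CASQ2, calsequestrin, the calcium buffer inside that store, stood at 9.50, 6.03, 10.4 and 10.9 rescaled TPM at Day 16 and 30.8, 33.6, 25.1 and 46.0 in HPLM/B27, a rise of 1.77 ± 0.19. CASQ1, the skeletal calsequestrin, rose by 1.00 ± 0.14.

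RRAD, a small GTPase that inhibits the L-type calcium channel, went from 17.4, 70.2, 22.3 and 18.8 to 141, 143, 137 and 141 rescaled TPM. Day 16 replicate 2 was far above the other Day 16 libraries and still below every HPLM/B27 library. RCAN1, a feedback inhibitor of calcineurin whose gene is driven by calcineurin signalling, went from 21.5, 24.3, 27.4 and 23.4 rescaled TPM to 58.5, 59.3, 81.9 and 97.1. The log2 fold changes of RRAD and RCAN1 were 2.34 ± 0.32 and 1.55 ± 0.18. CACNA2D1, the auxiliary subunit that brings the L-type channel to the membrane, rose by 0.83 ± 0.08, and ITPR1, the inositol trisphosphate receptor, fell by 0.40 ± 0.10. The pump, the release channel and the pore were not called, and their log2 fold changes took the opposite sign on the TPM as deposited (-0.17, -0.31 and -0.15). The calcium pump ATP2A2 stood at 401, 386, 420.4 and 399.8 rescaled TPM at Day 16 and 425, 426, 496 and 462 in HPLM/B27, the release channel RYR2 at 198, 219, 197 and 192 at Day 16 and 196, 210.1, 216 and 196 in HPLM/B27, and the channel pore CACNA1C had a log2 fold change of 0.18 ± 0.09. SLN, sarcolipin, an atrial inhibitor of the same pump, was carried by a mean of 2.75 reads at Day 16 and 11 in HPLM/B27 and was not called (limma adjusted p = 0.0504).

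Among 20 ion channels and pumps, 9 rose and 3 fell, with 3 and 5 on the TPM as deposited. KCNIP2, the subunit of the transient outward potassium current, went from 114, 175, 115 and 97.6 rescaled TPM to 47.7, 38.4, 44.9 and 33.8 and fell by 1.56 ± 0.15 on the log2 scale. Pacemaker channel genes were split, with HCN2 rising by 0.94 ± 0.18 on a mean of 14.25 and 39 reads, and HCN4, the main sinus node form, not called at -0.28 ± 0.11. The T-type calcium channel gene CACNA1H, a fetal form in ventricle, fell by 0.64 ± 0.15, and KCNH2, the channel of the rapid delayed rectifier current, was not called at -0.01 ± 0.10.

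In the intercalated disc list 2 of 13 genes rose and 4 fell, with 0 and 8 on the TPM as deposited, and 1 rose on leaving out any of the 8 libraries except HPLM/B27 replicate 2. Over all genes tested 12.7% rose and 12.8% fell, so the rises of this list lay near the share of all genes. GJA1, connexin 43 of the working myocardium, stood at 58.1, 58.9, 56.1 and 52.1 rescaled TPM at Day 16 and 71.2, 98.8, 88.2 and 77.7 in HPLM/B27, a rise of 0.56 ± 0.12. GJA5, connexin 40 of atrium and conduction system, fell by 0.98 ± 0.17, and the desmosome genes DSG2, PKP2 and DSC2 had log2 fold changes of -0.63 ± 0.09, -0.49 ± 0.10 and -0.45 ± 0.09. Of the caveolae genes, which shape the small pits of the membrane, 3 of 6 rose and none was called lower by limma (1 was lower at an unadjusted p under 0.05, in limma-voom, on the TPM as deposited, and without Day 16 replicate 4). CAV1 went from 5.20, 5.74, 5.37 and 3.95 to 19.1, 25.0, 21.0 and 26.9 rescaled TPM and CAV2 from 21.2, 24.9, 23.0 and 24.1 to 53.2, 56.0, 68.8 and 68.1. Neither gene overlapped between the groups, and the rises were 1.98 ± 0.18 and 1.36 ± 0.12. CAVIN4, the muscle cavin, rose by 0.92 ± 0.25 with overlap.

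Natriuretic peptide genes, which the fetal and the strained heart express, differed among themselves. NPPA, the atrial peptide, stood at 74.7, 73.3, 74.4 and 77.6 rescaled TPM at Day 16 and 176, 268, 158 and 221 in HPLM/B27, a rise of 1.41 ± 0.24. NPPB, the B-type peptide, stood at 176, 44.1, 266 and 199 rescaled TPM at Day 16 and 235, 155, 312 and 431 in HPLM/B27. Replicate 2 was the lowest library of both groups for NPPB, the groups overlapped, and it was not called. NPR3, the receptor that clears these peptides, rose by 1.57 ± 0.22, and EDN1, the vasoconstrictor endothelin, fell by 1.28 ± 0.19.

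Cardiac transcription factor genes fell more often than they rose, 10 against 3 of 24, with 12 against 2 on the TPM as deposited. HAND2 rose by 0.84 ± 0.09 from 121, 139, 119 and 106 to 226, 200.4, 208 and 236 rescaled TPM, and HOPX, a small homeodomain protein of maturing myocardium, rose by 1.28 ± 0.22. NKX2-5, an early homeobox factor of the heart, went from 63.4, 58.0, 67.2 and 59.7 rescaled TPM to 54.4, 45.1, 47.1 and 43.4 and fell by 0.38 ± 0.10 on the log2 scale. The factors MEF2C, TBX2, MYOCD and ISL1 had log2 fold changes of -0.83 ± 0.08, -0.76 ± 0.09, -0.65 ± 0.10 and -0.51 ± 0.11. GATA4 and TBX5, at -0.19 ± 0.07 and -0.12 ± 0.09, were not called. Receptors for hormones moved in both directions, with 6 of 12 higher and 3 lower, and 0 and 3 on the TPM as deposited. INSR, the insulin receptor, rose by 0.74 ± 0.09, NR3C1, the glucocorticoid receptor, by 0.69 ± 0.09, and ADORA1, an adenosine receptor, by 0.84 ± 0.18. The retinoid receptors RXRG and RXRA had log2 fold changes of -0.67 ± 0.13 and -0.40 ± 0.08.

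Glucose-sensing genes hold the largest fall of the comparison, TXNIP. The carbohydrate response element, to which the glucose-sensing factors MLX and MLXIP or MLXIPL bind as a pair, is known from the promoter of TXNIP. Its published consensus was searched on both strands, as CANGNG and CNCGNG with 5 bases of any kind between them, in the 250 bases before and 50 after each RefSeq start. It was found in 2.33% of the 27305 promoters and in 1 of the 4 glucose-sensing genes that fell. The match in TXNIP begins 88 bases before the start (chr1:145996600-145996719, minus strand, GRCh38.p14), and its letters are in capitals.
TXNIP: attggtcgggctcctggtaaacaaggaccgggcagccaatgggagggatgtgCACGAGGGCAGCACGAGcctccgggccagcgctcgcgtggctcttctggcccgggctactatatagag
Of 16 glucose-sensing genes, 7 rose and 4 fell, with 3 and 4 on the TPM as deposited. Besides TXNIP and ARRDC4, their relative ARRDC3 went from 29.3, 41.9, 34.7 and 31.4 to 9.46, 13.6, 9.41 and 10.9 rescaled TPM and fell by 1.58 ± 0.13. PDK1, a kinase that shuts pyruvate dehydrogenase off, fell by 0.40 ± 0.05. MLXIP itself was not called (-0.16 ± 0.14).

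Among the members that rose were genes that regulate glucose uptake or its drive into glycolysis. PFKFB2, the heart form of the enzyme that makes fructose 2,6-bisphosphate and so speeds glycolysis, stood at 1.91, 3.06, 2.07 and 1.82 rescaled TPM at Day 16 and 10.8, 14.4, 13.4 and 13.7 in HPLM/B27. Its groups lay several fold apart, with a rise of 2.14 ± 0.14. SLC2A4, the insulin-responsive glucose transporter GLUT4, stood at 7.44, 16.2, 8.78 and 7.93 rescaled TPM at Day 16 and 29.9, 36.4, 37.5 and 24.2 in HPLM/B27, and Day 16 replicate 2 was the highest of its group. TBC1D4, which holds GLUT4 vesicles back until insulin acts, stood at 36.4, 52.1, 37.1 and 34.1 rescaled TPM at Day 16 and 91.0, 96.7, 112 and 104 in HPLM/B27. SLC2A4 and TBC1D4 rose by 1.62 ± 0.22 and 1.33 ± 0.11, and SLC2A1, the constitutive transporter, rose by 0.64 ± 0.17 with overlap between the groups.

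Glycolysis genes rose in 13 of 19 cases and none was called lower (limma; none also at an unadjusted p under 0.05 or in limma-voom), with a median log2 fold change of 0.53. With deposited TPM 6 rose and 1 fell. LDHA, which makes lactate, stood at 319, 323, 373 and 354 rescaled TPM at Day 16 and 516, 567, 592 and 603 in HPLM/B27. LDHB, the heart form that runs towards pyruvate, stood at 371, 395, 407 and 469 rescaled TPM at Day 16 and 703, 663, 678 and 689.6 in HPLM/B27. Neither enzyme overlapped between the groups, and the rises were 0.73 ± 0.08 and 0.74 ± 0.11. ALDOC, PGK1, ENO3 and ENO1 rose by 1.30 ± 0.18, 0.78 ± 0.11, 0.90 ± 0.07 and 0.59 ± 0.10. PKM, which makes pyruvate, was not called (0.15 ± 0.06, and -0.18 on the TPM as deposited). Glycogen genes rose in 7 of 15 cases and fell in 1, with 3 and 3 on the TPM as deposited and 2 falls without Day 16 replicate 1 or 4. PPP1R3A, the striated muscle subunit that directs the phosphatase to glycogen, stood at 49.1, 48.8, 49.5 and 55.1 rescaled TPM at Day 16 and 157, 184, 173 and 169 in HPLM/B27, a rise of 1.74 ± 0.10. PPP1R3C rose by 1.44 ± 0.13, the branching enzyme GBE1 by 0.65 ± 0.07 and glycogen synthase GYS1 by 0.37 ± 0.08.

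Regulators of mitochondrial genes rose in 5 of 11 cases and none was called lower by limma (0 at an unadjusted p under 0.05 and 0 in limma-voom), with 2 and 0 on the TPM as deposited. ESRRA, the estrogen-related receptor that drives respiratory chain genes, stood at 6.96, 8.38, 7.69 and 6.18 rescaled TPM at Day 16 and 18.1, 16.5, 16.6 and 17.8 in HPLM/B27. PPARGC1A, the coactivator PGC-1 alpha that works with it, stood at 42.3, 44.3, 44.0 and 40.7 rescaled TPM at Day 16 and 71.1, 79.0, 97.4 and 85.2 in HPLM/B27. Both genes separated the groups, with rises of 1.15 ± 0.09 and 0.93 ± 0.09, and their relatives PPARGC1B and PPARA rose by 0.72 ± 0.12 and 0.38 ± 0.08. TFAM, which copies and packs mitochondrial DNA, stood at 25.0, 19.7, 23.7 and 22.5 rescaled TPM at Day 16 and 19.8, 22.0, 23.2 and 20.0 in HPLM/B27 and was not called.

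Nuclear genes of respiratory complexes I, III, IV and of the ATP synthase were called in 1 direction only. Of 75 tested, 40 rose and none was called lower by limma (none also at an unadjusted p under 0.05 or in limma-voom), with a median log2 fold change of 0.41. Before rescaling 5 rose and none fell, so the rise is one relative to the median gene of the library. By complex, 21 of 36 rose in complex I, 5 of 9 in complex III, 7 of 13 in complex IV and 7 of 17 in the ATP synthase, with 4, 1, 0 and 0 on the TPM as deposited. The ATP synthase count was 4 without Day 16 replicate 1 or HPLM/B27 replicate 1. NDUFA8 of complex I stood at 15.3, 13.4, 17.0 and 16.6 rescaled TPM at Day 16 and 32.4, 27.6, 29.2 and 34.6 in HPLM/B27. UQCRB of complex III stood at 33.8, 31.8, 32.9 and 41.3 rescaled TPM at Day 16 and 72.8, 59.1, 65.9 and 68.8 in HPLM/B27, and COX5B of complex IV at 893, 869.9, 954 and 876 at Day 16 and 1451, 1505, 1484 and 1319 in HPLM/B27. These examples did not overlap between the groups, and rose by 0.95 ± 0.13, 0.91 ± 0.17 and 0.68 ± 0.10. NDUFB9, COX7B and ATP5MG rose by 0.80 ± 0.16, 0.62 ± 0.13 and 0.57 ± 0.07. The proteins encoded by mitochondrial DNA are not analysed here.

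In the citrate cycle and the entry of pyruvate into it, 15 of 29 genes rose and 1 fell, with 2 and 1 on the TPM as deposited. MPC1, a subunit of the carrier that brings pyruvate into the mitochondrion, stood at 19.2, 20.8, 19.1 and 19.4 rescaled TPM at Day 16 and 43.5, 53.6, 62.2 and 54.9 in HPLM/B27, a rise of 1.39 ± 0.10. IDH3A, the NAD-linked isocitrate dehydrogenase, rose by 1.03 ± 0.16, GOT1, of the malate-aspartate shuttle, by 0.80 ± 0.07, and the succinate dehydrogenase subunits SDHD and SDHB by 0.68 ± 0.07 and 0.63 ± 0.09. Of succinyl-CoA ligase, SUCLG1, common to both forms, rose by 0.53 ± 0.08, and the GTP-forming subunit SUCLG2 fell by 0.43 ± 0.08. Genes of fatty acid uptake and oxidation rose in 10 of 29 cases and fell in 2, with 1 and 3 on the TPM as deposited. Neither fall was called without Day 16 replicate 1, and 1 was called without Day 16 replicate 3 or 4 or HPLM/B27 replicate 1 or 4. FABP3, the fatty acid carrier of heart muscle, stood at 148, 147, 154 and 175 rescaled TPM at Day 16 and 431, 454, 382 and 420.3 in HPLM/B27, a rise of 1.43 ± 0.11. CD36, the uptake receptor, rose by 0.83 ± 0.13 and the flavoprotein ETFDH by 0.63 ± 0.09. CPT1A, the gate of the pathway and the liver form of it, rose by 0.71 ± 0.10, and the medium-chain enzyme ACADM by 0.43 ± 0.08.

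The muscle creatine kinases and the creatine transporter rose. CKM went from 121, 139.5, 116 and 124 to 346, 427, 361 and 314 rescaled TPM, the creatine transporter SLC6A8 from 12.4, 12.7, 10.9 and 12.4 to 22.7, 24.7, 23.9 and 23.1, and the mitochondrial creatine kinase CKMT2 from 9.30, 10.3, 9.57 and 9.59 to 25.3, 26.6, 28.2 and 29.3. The 3 genes separated the groups, and rose by 1.52 ± 0.12, 0.91 ± 0.11 and 1.41 ± 0.09. GATM, with which a cell makes creatine for itself, fell by 0.73 ± 0.10. In the whole list of ketone, lactate, creatine, carnitine and taurine genes 5 of 18 rose and 2 fell, with 2 and 3 on the TPM as deposited. Mitochondrial ribosome genes rose in 24 of 73 cases and fell in 1, with 4 and 4 on the TPM as deposited, led by MRPL34 (1.00 ± 0.14) and MRPL15 (0.87 ± 0.15). Of 75 cytosolic ribosome genes 4 were called higher and 1 lower, with a median log2 fold change of 0.07. The rises numbered 2 without Day 16 replicate 1 and 7 without Day 16 replicate 4, and on the TPM as deposited 0 were higher and 27 lower.

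**Figure D3:**
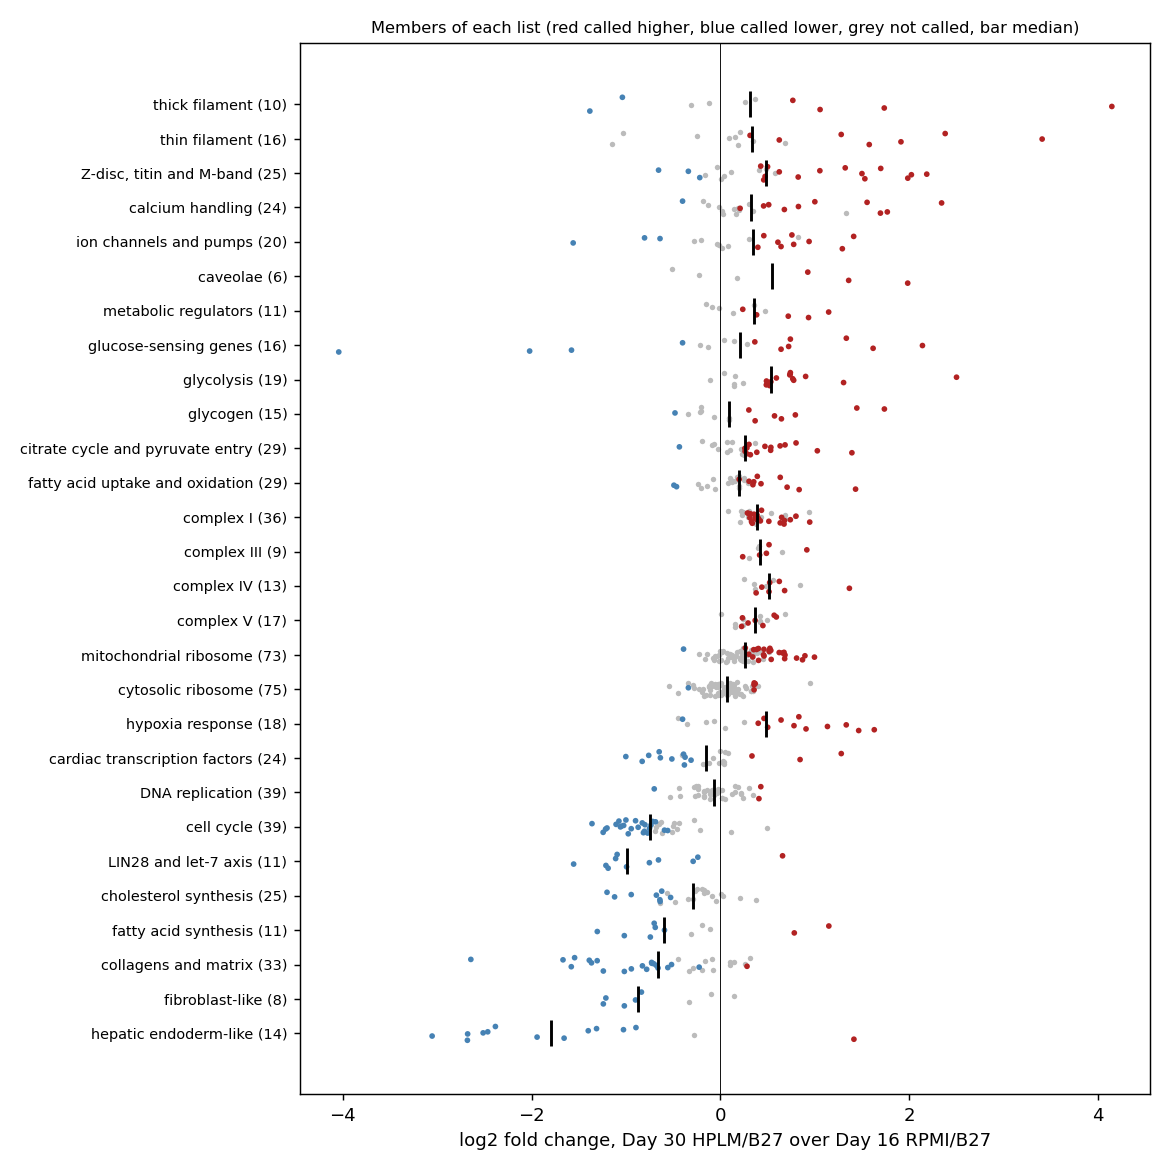
Each row is a gene list with the number of its members tested, each point a member placed at its log2 fold change, and the bar the median of the list. Red points were called higher, blue lower and grey neither, with no blue point among the 75 genes of complexes I, III, IV and V and no red point among the 39 cell cycle genes. On the TPM as deposited the median of all genes is -0.29, and 27 cytosolic ribosome genes are called lower.

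Genes that answer to low oxygen rose in 11 of 18 cases and fell in 1, with 5 and 3 on the TPM as deposited and 2 falls without Day 16 replicate 2 or HPLM/B27 replicate 3. ADM, the vasodilator adrenomedullin, stood at 12.9, 10.8, 17.3 and 14.4 rescaled TPM at Day 16 and 43.9, 51.3, 51.9 and 33.0 in HPLM/B27. VEGFA, the vascular growth factor, stood at 94.0, 138, 102 and 105 rescaled TPM at Day 16 and 267, 329.8, 339.7 and 275 in HPLM/B27. EGLN3, an oxygen-sensing hydroxylase that turns HIF over, rose by 1.13 ± 0.16 and ADM and VEGFA by 1.63 ± 0.16 and 1.46 ± 0.11. BNIP3, which marks mitochondria for removal, stood at 715, 699, 809 and 680.0 rescaled TPM at Day 16 and 1229, 1279, 1594 and 1357 in HPLM/B27, a rise of 0.91 ± 0.09. HIF1A, the oxygen-regulated factor itself, which is controlled mainly as a protein, was not called (-0.15 ± 0.09). Several of these genes, and the glycolytic ones above, are shared targets of HIF. The core of the hypoxia response element, ACGTG, was found on either strand in 4 of the 8 rising members with a RefSeq promoter (50%) and in 24.9% of all promoters. The list was made of genes that answer to low oxygen, and the share among members that did not rise was not computed. These shares therefore do not bear on which members rose. BNIP3 is shown as an abundant member, with the core and its complement, which overlap, in capitals (chr10:131981995-131982114, minus strand, GRCh38.p14).
BNIP3: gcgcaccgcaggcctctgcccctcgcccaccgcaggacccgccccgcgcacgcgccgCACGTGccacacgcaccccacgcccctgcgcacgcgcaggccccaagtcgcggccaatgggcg

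Of 39 cell cycle genes tested, 25 were called lower and none higher by limma (none higher also at an unadjusted p under 0.05 or in limma-voom, and 1 without HPLM/B27 replicate 2), with a median log2 fold change of -0.75. The count was 19 to 30 on leaving out single libraries, 36 on the TPM as deposited and 16 with only these 2 groups in the fit. PTTG1, securin, which holds sister chromatids together until anaphase, stood at 117, 136, 123 and 111 rescaled TPM at Day 16 and 44.9, 23.1, 56.0 and 81.1 in HPLM/B27. CCNB2, a cyclin of mitosis, stood at 40.7, 43.0, 49.0 and 34.6 rescaled TPM at Day 16 and 15.1, 8.99, 24.5 and 24.3 in HPLM/B27. MKI67, the proliferation marker Ki-67, stood at 31.5, 32.6, 30.3 and 32.4 rescaled TPM at Day 16 and 18.5, 6.78, 20.5 and 22.4 in HPLM/B27. In all 3 genes HPLM/B27 replicate 2 was the lowest library, and the groups did not overlap. Their log2 fold changes were -1.36 ± 0.25, -1.24 ± 0.25 and -0.98 ± 0.26, and those of the mitotic kinase PLK1, the spindle proteins TPX2 and DLGAP5 and the anaphase activator CDC20 were -1.22 ± 0.31, -1.11 ± 0.25, -1.08 ± 0.22 and -0.80 ± 0.19. The spread within HPLM/B27 left some members undecided. TOP2A, which untangles chromosomes, stood at 80.1, 93.0, 86.9 and 85.6 rescaled TPM at Day 16 and 55.3, 24.5, 80.9 and 86.5 in HPLM/B27, and CDK1, the mitotic kinase, at 39.0, 53.1, 47.5 and 44.0 at Day 16 and 28.5, 16.0, 49.7 and 43.4 in HPLM/B27. Neither was called, and in both only HPLM/B27 replicates 1 and 2 lay below the Day 16 group.

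Promoters of G2 and M phase genes are known for a cell cycle homology region, TTTGAA, through which the DREAM complex keeps them silent in resting cells. It was present, on either strand, in 13 of the 21 falling cell cycle genes with a RefSeq promoter (61.9%), in 9 of the 11 that were not called (81.8%) and in 18.2% of all promoters, so its presence did not single out the genes that fell. Stretches of 3 falling members are shown with TTTGAA or its complement TTCAAA in capitals, at chr10:128126424-128126543 (minus strand) for MKI67, chr1:43358859-43358978 (plus strand) for CDC20 and chr14:55191632-55191751 (minus strand) for DLGAP5, all GRCh38.p14.
MKI67: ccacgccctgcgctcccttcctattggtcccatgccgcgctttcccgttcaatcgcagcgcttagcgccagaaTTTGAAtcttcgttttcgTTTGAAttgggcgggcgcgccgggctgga
CDC20: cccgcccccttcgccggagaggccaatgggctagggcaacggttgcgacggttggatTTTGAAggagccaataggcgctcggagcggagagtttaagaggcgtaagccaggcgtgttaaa
DLGAP5: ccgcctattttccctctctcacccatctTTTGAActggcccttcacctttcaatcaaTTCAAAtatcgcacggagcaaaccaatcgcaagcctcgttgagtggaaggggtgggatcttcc
MKI67 carries 2 copies in this stretch, and DLGAP5 has 1 on each strand.

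Of 39 DNA replication genes 2 rose and 1 fell, with 0 and 9 on the TPM as deposited. The falls numbered 4 without Day 16 replicate 2 and 2 without HPLM/B27 replicate 1 or 3. MCM4, of the replicative helicase, stood at 33.3, 24.1, 33.8 and 32.2 rescaled TPM at Day 16 and 46.2, 41.6, 40.0 and 36.2 in HPLM/B27, a rise of 0.41 ± 0.10. PCNA, the sliding clamp, was not called (0.22 ± 0.18, and -0.11 on the TPM as deposited), and thymidine kinase TK1 fell by 0.70 ± 0.18. Of 15 brakes of the cycle 2 rose and 2 fell, with 1 and 3 on the TPM as deposited. These counts lay near the shares of all genes tested, of which 12.7% rose and 12.8% fell. CDKN2D and BTG2 rose by 0.97 ± 0.26 and 0.65 ± 0.13, and CDKN2B fell by 0.90 ± 0.16. The other fall, of CDKN1A, was not called without Day 16 replicate 1 or 3 or HPLM/B27 replicate 3 or 4 (-0.23 to -0.26). Genes of nucleotide synthesis fell in 7 of 22 cases and rose in 2, with 13 and 0 on the TPM as deposited, and 1 rose on leaving out any Day 16 library but replicate 4 or any HPLM/B27 library but replicate 4. ATIC, PFAS and GMPS of purine synthesis had log2 fold changes of -0.66 ± 0.08, -0.65 ± 0.09 and -0.40 ± 0.06.

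The LIN28 and let-7 axis, in which LIN28 proteins block maturation of the let-7 microRNAs that silence fetal growth genes, was lower in nearly all its members. Of 11 tested, 10 fell and 1 rose, with 10 and 0 on the TPM as deposited. HMGA2, a chromatin protein and let-7 target, stood at 45.5, 46.7, 47.9 and 48.0 rescaled TPM at Day 16 and 16.6, 14.9, 14.7 and 15.3 in HPLM/B27, a log2 fold change of -1.55 ± 0.07 (limma adjusted p = 2.16e-09). LIN28B went from 10.3, 11.0, 10.2 and 10.1 rescaled TPM to 4.89, 5.22, 4.26 and 4.54 and LIN28A from 2.84, 2.64, 3.39 and 2.90 to 0.936, 0.984, 0.561 and 0.475. No member named here overlapped between the groups, and HMGA1, TRIM71, LIN28A and LIN28B had log2 fold changes of -1.21 ± 0.12, -1.11 ± 0.14, -1.19 ± 0.18 and -0.99 ± 0.09. The imprinted, virus-derived gene PEG10 was the member that rose (0.66 ± 0.17, with overlap).

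Growth factor genes changed in both directions, with 8 of 31 higher and 13 lower, and 3 and 14 on the TPM as deposited. The number of rises was 5 without Day 16 replicate 1 or 4. FGF1, the acidic fibroblast growth factor, stood at 6.31, 8.50, 6.74 and 7.88 rescaled TPM at Day 16 and 24.6, 21.4, 27.4 and 32.7 in HPLM/B27, a rise of 1.71 ± 0.11. TGFB2 and BMP2, which turn endocardial cells into valve mesenchyme, both fell. TGFB2 went from 213, 199.7, 216 and 203 rescaled TPM to 91.1, 77.5, 78.5 and 89.2 and BMP2 from 115, 73.4, 109 and 109 to 56.5, 44.4, 45.0 and 47.0. FGF10, of the outflow tract progenitors, fell by 0.82 ± 0.07, and BMP10, of the trabeculating ventricle, fell by 0.88 ± 0.15, the latter from a mean of 40.75 to 8.5 recovered reads. TGFB2, BMP2, TGFB3 and BMP4 had log2 fold changes of -1.30 ± 0.07, -1.04 ± 0.14, -0.94 ± 0.21 and -0.94 ± 0.20.

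In fatty acid synthesis 6 of 11 genes fell and 2 rose, with 8 and 1 on the TPM as deposited. FASN, fatty acid synthase, stood at 40.4, 35.1, 44.6 and 37.7 rescaled TPM at Day 16 and 16.8, 24.1, 17.6 and 17.8 in HPLM/B27, and ACLY, which makes its acetyl-CoA, at 60.5, 51.2, 59.3 and 56.3 at Day 16 and 35.0, 38.5, 31.0 and 30.1 in HPLM/B27. ELOVL6, which lengthens palmitate, fell by 1.30 ± 0.16, FASN fell by 1.02 ± 0.16 and ACLY fell by 0.74 ± 0.10. SREBF1, the gene of the factor SREBP-1 that normally drives these enzymes, went from 5.48, 7.51, 6.35 and 6.06 rescaled TPM to 14.6, 14.7, 18.5 and 13.4, a rise of 1.15 ± 0.15. In cholesterol synthesis 8 of 25 fell and none was called higher by limma (1 at an unadjusted p under 0.05, 0 in limma-voom). The falls numbered 17 on the TPM as deposited and 13 without Day 16 replicate 2. SQLE, squalene epoxidase, stood at 47.5, 24.9, 47.4 and 44.6 rescaled TPM at Day 16, lowest in replicate 2, and at 16.6, 18.5, 16.1 and 20.1 in HPLM/B27, and fell by 1.12 ± 0.20.

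Of 33 collagens and matrix genes, 20 fell and 1 rose, with a median log2 fold change of -0.66, and 24 and 0 on the TPM as deposited. VCAN, versican, the proteoglycan of the embryonic heart jelly, stood at 397, 384, 410.2 and 380.0 rescaled TPM at Day 16 and 144, 159, 151 and 143 in HPLM/B27. FN1, fibronectin, stood at 361, 367, 316 and 289 rescaled TPM at Day 16 and 114, 97.7, 101 and 131 in HPLM/B27. SPARC, a collagen-binding glycoprotein, stood at 127, 145, 123 and 107 rescaled TPM at Day 16 and 51.7, 45.3, 47.4 and 47.3 in HPLM/B27. Each group was compact and far from the other, with log2 fold changes of -1.39 ± 0.08, -1.58 ± 0.10 and -1.37 ± 0.09. HAPLN1, which links hyaluronan to versican, fell by 1.67 ± 0.14, and the protease MMP2 fell by 1.54 ± 0.17.

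**Figure D4:**
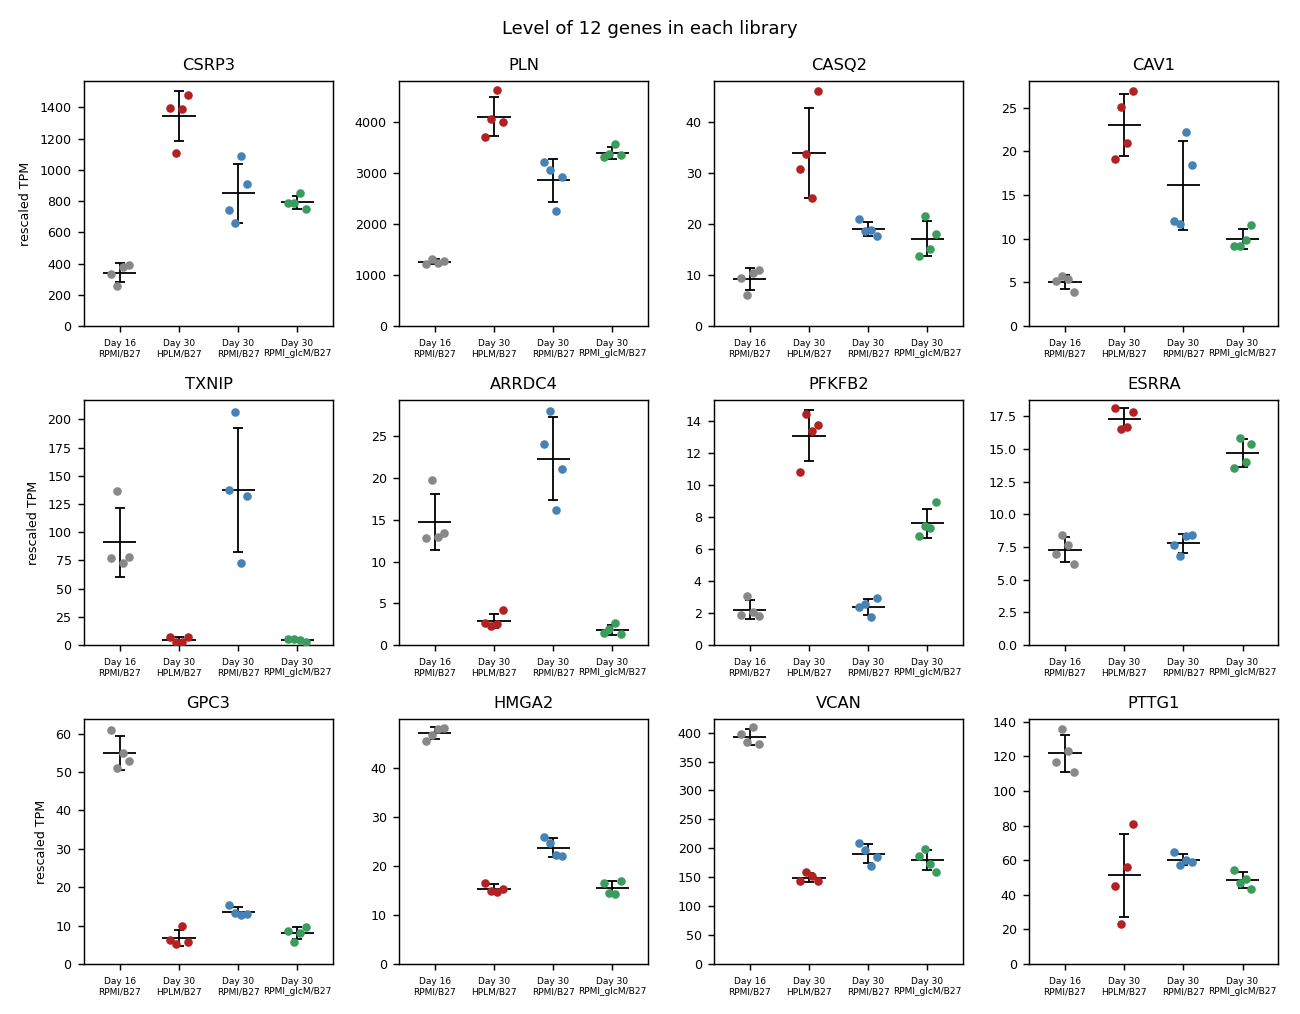
The level in rescaled TPM of 12 genes is shown for every library (points), with the mean (bar) and SD (whiskers, n = 4) of the Day 16 group and the 3 Day 30 media. TXNIP and ARRDC4 are low in HPLM/B27 and RPMI_glcM/B27 and high in both RPMI/B27 groups, whereas VCAN and HMGA2 are below Day 16 in all 3 Day 30 media.

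Of the heat shock and unfolded protein genes 4 of 23 rose and 4 fell, with 1 and 11 on the TPM as deposited. Over all genes tested 12.7% rose and 12.8% fell, so the list was not far from these shares. The small heat shock genes HSPB7 and HSPB3, both enriched in muscle, rose by 0.67 ± 0.08 and 0.91 ± 0.23. CALR, calreticulin, a chaperone of the endoplasmic reticulum, went from 1138, 658, 1064 and 1013 to 502, 727, 410.3 and 483 rescaled TPM. Day 16 replicate 2 was low and HPLM/B27 replicate 2 high, so these groups overlapped. CALR fell by 0.87 ± 0.18 and PDIA4 fell by 0.95 ± 0.17, and HSPA5, the main chaperone of this compartment, was not called (-0.47 ± 0.21). Without Day 16 replicate 2, 7 members were called lower. Amino acid response genes rose in 7 of 27 cases and fell in 5, with 3 and 5 on the TPM as deposited. DDIT4 and DDIT3, induced by energy and nutrient stress, rose by 1.47 ± 0.21 and 1.02 ± 0.17. SLC1A5, which imports glutamine, fell by 1.04 ± 0.13, ALDH18A1, of proline synthesis, fell by 0.77 ± 0.13 and PHGDH, of serine synthesis, fell by 0.68 ± 0.12.

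In the oxidative stress and selenoprotein list 5 of 31 rose and 4 fell, with 2 and 7 on the TPM as deposited. These counts lay near the shares of all genes tested, of which 12.7% rose and 12.8% fell. GPX3, the secreted glutathione peroxidase, stood at 24.5, 25.9, 21.3 and 27.7 rescaled TPM at Day 16 and 74.1, 52.5, 57.9 and 61.4 in HPLM/B27, a rise of 1.27 ± 0.12. CAT, catalase, rose by 0.49 ± 0.09, and the peroxiredoxins PRDX6 and PRDX1 had log2 fold changes of -0.70 ± 0.10 and -0.50 ± 0.12. Lysosome and autophagy genes rose in 4 of 26 cases, with none called lower by limma (1 at an unadjusted p under 0.05, 0 in limma-voom, and 1 without Day 16 replicate 2 or HPLM/B27 replicate 1), and 1 and 3 on the TPM as deposited. SQSTM1, the cargo receptor p62, rose by 0.89 ± 0.08 and TFEB, the factor that drives lysosome genes, by 0.54 ± 0.13. The rises of the lysosome and autophagy list lay near the share of all genes too. Of 12 tested interferon and antigen presentation genes 2 rose and 2 fell, also near these shares, with 0 and 2 on the TPM as deposited. A single rise was left without Day 16 replicate 1 or 4 or HPLM/B27 replicate 1, and a single fall without any Day 16 library but replicate 2 or any HPLM/B27 library but replicate 1.

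Marker lists of other cell types were read beside these changes. In bulk libraries fewer cells of a type and less RNA per cell cannot be told apart. All 8 cardiomyocyte markers were tested, and their summed level was 7499 to 9727 rescaled TPM at Day 16 and 9987 to 12413 in HPLM/B27, so the markers of the labelled cell type were present throughout. Hepatic endoderm markers were at 364 to 717 and 81.2 to 213, with 12 of 14 lower and 1 higher. ALB, albumin, was the exception, with 25.9, 10.6, 16.2 and 19.7 rescaled TPM at Day 16 and 22.2, 76.9, 61.5 and 48.6 in HPLM/B27. The groups overlapped, yet it rose by 1.41 ± 0.37, while FGA and AHSG of the same list had log2 fold changes of -2.46 ± 0.23 and -2.38 ± 0.30. The fibroblast-like sum was 231 to 336 and 137 to 198, with 5 of 8 lower, among them COL1A1 (-1.02 ± 0.14), COL1A2 (-1.24 ± 0.13) and PDGFRA (-0.90 ± 0.14). The part of these lists in the falls of matrix and liver genes above was not tested.

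The remaining marker lists were read in the same way. The smooth muscle-like sum of 281 to 693 and 276 to 553 rescaled TPM overlapped, and none of its 5 tested markers was called by limma (2 lower at an unadjusted p under 0.05, 1 in limma-voom, 1 without Day 16 replicate 2 and 3 on the TPM as deposited). Pluripotency markers summed to 40.6 to 59.2 and 26.4 to 30.8, with LIN28A, DNMT3B and TDGF1 all lower. POU5F1, NANOG and SOX2 were under the level for testing. The sums of this list were lower still in Day 30 RPMI/B27 (12.33 to 17.25) and RPMI_glcM/B27 (15.08 to 19.95). Of the 3 tested, 1 was called higher in HPLM/B27 than in each of these media. The endothelial-like sum was 37.0 to 46.5 and 21.6 to 35.1, carried by KDR, which also marks cardiac progenitors and fell by 0.53 ± 0.15. In the epicardial-like list, whose 3 calls were lost on leaving out single libraries and numbered 2 on the TPM as deposited, the sums were 20.9 to 21.2 and 19.2 to 21.1, and in the neural-like list 7.68 to 8.91 and 5.70 to 8.05. The skeletal muscle-like sum of 118 to 143 and 318 to 432 rescaled TPM was almost wholly CKM, a gene that heart muscle also uses, and 4 of its 10 listed markers were at 0 in all 8 libraries.

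The Day 30 media were then set beside HPLM/B27, from the same fit and with the same HPLM/B27 libraries. Against Day 30 RPMI/B27, 12.7% of the 16227 genes were called, 7.01% higher and 5.71% lower in HPLM/B27, and against RPMI_glcM/B27 1.51%, 0.949% higher and 0.561% lower. The latter counts, 154 higher and 91 lower, went to 76 to 101 and 42 to 58 on leaving out any 1 of the 8 libraries but HPLM/B27 replicate 2 (175 and 79), and to 8 and 3 on the TPM as deposited. For TXNIP the Day 30 means were 138 ± 54.9 rescaled TPM (SD, n = 4) in RPMI/B27 and 4.48 ± 1.16 in RPMI_glcM/B27. The log2 difference of HPLM/B27 was -4.59 ± 0.33 from RPMI/B27 and 0.00 ± 0.33 from RPMI_glcM/B27 (limma adjusted p = 1). ARRDC4 averaged 22.3 ± 4.99 and 1.82 ± 0.601 rescaled TPM in the same media. MYL2 averaged 535 ± 62.3 rescaled TPM in RPMI/B27 and 376 ± 23.7 in RPMI_glcM/B27, and was higher in HPLM/B27 than in RPMI_glcM/B27 by 0.83 ± 0.14 (limma adjusted p = 0.00723). Against RPMI/B27 its difference of 0.33 ± 0.14 had an adjusted p of 0.14 by limma. TNNI3 was higher in HPLM/B27 than in RPMI/B27 by 1.73 ± 0.09 and than in RPMI_glcM/B27 by 0.58 ± 0.09, both called.

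Of the 51 sarcomere genes 7 were higher and 0 lower than in RPMI_glcM/B27 by limma (2 lower at an unadjusted p under 0.05, 1 in limma-voom), and 7 were higher and 3 lower than in RPMI/B27. CSRP3 averaged 849 ± 189 rescaled TPM in RPMI/B27 and 794 ± 42.4 in RPMI_glcM/B27, and HPLM/B27 exceeded them by 0.68 ± 0.15 and 0.75 ± 0.15. CAV1 averaged 16.1 ± 5.11 rescaled TPM in RPMI/B27 and 9.94 ± 1.15 in RPMI_glcM/B27. HPLM/B27 was above RPMI_glcM/B27 by 1.13 ± 0.18 for CAV1 and by 0.93 ± 0.19 for CASQ2. RCAN1, at 27.4 ± 7.72 and 29.1 ± 2.08 rescaled TPM in these RPMI media, was higher in HPLM/B27 by 1.41 ± 0.18 and 1.29 ± 0.18, and GPX3 by 1.01 ± 0.12 and 0.86 ± 0.12. PFKFB2 averaged 2.40 ± 0.500 rescaled TPM in RPMI/B27 and 7.62 ± 0.909 in RPMI_glcM/B27, and HPLM/B27 exceeded them by 2.05 ± 0.14 and 0.71 ± 0.14.

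Of the 19 glycolysis genes 15 were higher in HPLM/B27 than in RPMI/B27 and 1 was higher than in RPMI_glcM/B27, namely ENO3 (0.64 ± 0.07). Of the 75 respiratory chain and ATP synthase genes 33 were higher than in RPMI/B27, and none differed from RPMI_glcM/B27 by limma (1 higher and 1 lower at an unadjusted p under 0.05, none in limma-voom). ESRRA averaged 7.79 ± 0.724 rescaled TPM in RPMI/B27 and 14.7 ± 1.10 in RPMI_glcM/B27. Hepatic endoderm markers summed to 461 to 507 rescaled TPM in Day 30 RPMI/B27 and 99.1 to 245 in RPMI_glcM/B27, and 11 of 14 were lower in HPLM/B27 than in RPMI/B27. No cell cycle gene differed between HPLM/B27 and either other Day 30 medium by limma (1 higher than in RPMI/B27 and 2 higher than in RPMI_glcM/B27 at an unadjusted p under 0.05, none in limma-voom). Matrix genes were lower than in RPMI/B27 in 14 of 33 cases, while against RPMI_glcM/B27 4 were higher and 1 lower.

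**Figure D5:**
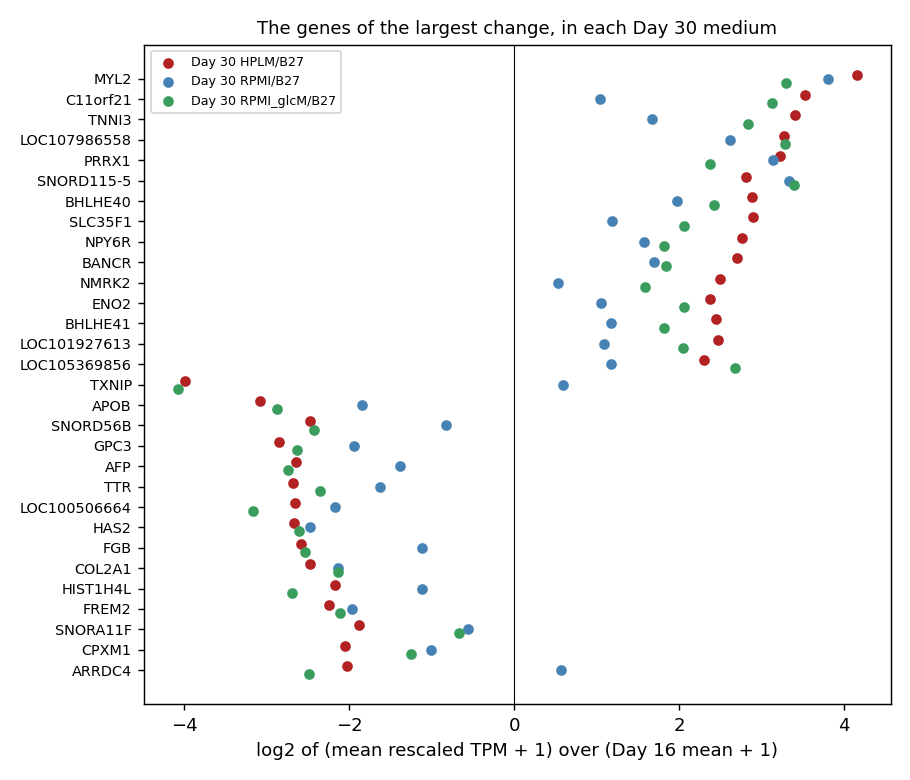
For the 30 genes of the largest rises and falls in HPLM/B27, the log2 ratio of the group mean plus 1 over the Day 16 mean plus 1, in rescaled TPM, is given for each Day 30 medium. TXNIP lies at -3.99 in HPLM/B27, -4.07 in RPMI_glcM/B27 and 0.59 in RPMI/B27, whereas MYL2 lies at 4.15, 3.30 and 3.80.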

How the data were processed

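The authors deposited 1 table of TPM for 43388 genes in 16 libraries, made from total RNA with the Takara SMARTer Stranded kit. The submitters' processing notes name STAR 2.5.3a, featureCounts 2.0.3, R 4.1.3 and hg38. The strand setting of the counting was not given in the sources used here. TPM of each library sum to 1000000, so abundant RNAs lower all other values. Each library's TPM were divided by a factor, the median of its ratios to the geometric mean over 14918 genes above 0 in every library. The log2(rescaled TPM + 1) values of all 4 groups were fitted in limma 3.58.1 (R 4.3.3; lmFit, eBayes with trend), with Benjamini-Hochberg adjustment over the 16227 genes whose mean over the 8 compared libraries reached 1 TPM and a threshold of 0.05. Whole reads, recovered by comparing the TPM of each gene across libraries, within 0.02 of a whole number for 31047 of 31047 genes above 0, gave the depths and a limma-voom alternative. Shares of 12 isoform pairs were tested by exact permutation, where 4 against 4 libraries cannot go below p = 0.0286. The fit was tested on simulated data. Python 3.11.15, numpy 2.4.6, pandas 2.3.3 and matplotlib 3.10.9 were used.

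Replicates were the numbered libraries of a group, all of which differed by more than sampling noise (chi-square per gene 2.16 to 21.8). Replicate numbers did not pair the libraries (same-number correlations -0.06 to 0.11). The members and gene lists were chosen with earlier results of these data known. Named genes were the 15 largest called changes in each direction without overlap and with at least 10 rescaled TPM in the higher group, the isoform pairs, and from each list up to 6 called members per direction and the members its role turns on. Promoters are those of RefSeq (GRCh38.p14), 250 bases before to 50 after each start. Alternatives covered the scaling, pseudocount, filters, the groups in the fit, a replicate block, an RNR1 covariate and leaving out each library. The proteins that mitochondrial DNA encodes are not analysed here, and values of some list members are not reported here.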

Additional observations from a re-analysis of the deposited data

Results flagged for a closer look

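Single libraries stood far from the other 3 of their group in 13 of the 84 groups of values examined, where chance gives about 1 in 20, and Day 16 replicate 2 was the library in 8 of them. In that library ENO2 was at 47.5, TXNIP at 137, COL2A1 at 188, CPXM1 at 40.9 and ARRDC4 at 19.7 rescaled TPM, each the highest of its group, and FREM2, at 45.4, was the lowest of its group. Its MYH7 share of the MYH7 and MYH6 sum was 54.1%, and its SLC2A4 share of the SLC2A4 and SLC2A1 sum 31.8%. SNORA11F stood at 28.8 rescaled TPM in Day 16 replicate 3 and BANCR at 79.1 in HPLM/B27 replicate 4. Among isoform shares, MYL2 took 17.0% of its sum with MYL7 in HPLM/B27 replicate 2, and in HPLM/B27 replicate 1 LDHB took 57.7% of its sum with LDHA and CPT1B 2.10% of its sum with CPT1A. The groups of COL2A1, ENO2, TXNIP and ARRDC4 stayed apart with these libraries included, as the rule that named them required.

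For 19 of the 30 genes with the largest changes, the change from Day 16 in HPLM/B27 differed from that in RPMI/B27 by the limma contrast of the Day 30 media. Each value is the log2 difference, HPLM/B27 minus RPMI/B27. Higher in HPLM/B27 were C11orf21 (2.56), NMRK2 (1.99), TNNI3 (1.73), SLC35F1 (1.71), ENO2 (1.39), LOC101927613 (1.36), LOC105369856 (1.30), BHLHE41 (1.28), NPY6R (1.18), BANCR (1.03) and LOC107986558 (0.66). Lower were TXNIP (-4.59), ARRDC4 (-2.58), FGB (-1.45), AFP (-1.35), APOB (-1.24), CPXM1 (-1.08), TTR (-0.995) and GPC3 (-0.94). Against RPMI_glcM/B27 7 differed, namely NPY6R (0.93), BANCR (0.87), PRRX1 (0.86), SLC35F1 (0.85), MYL2 (0.83), TNNI3 (0.58) and CPXM1 (-0.84). Over all 16227 genes, 12.7% were called against RPMI/B27 and 1.51% against RPMI_glcM/B27. The 30 genes were picked by their change in HPLM/B27, and both contrasts use the same HPLM/B27 libraries. The counts of 19 and 7 are therefore descriptions and not a test.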

How the results depend on the processing

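The scaling of the libraries decided the balance of calls more than any other choice tried. Without rescaling 480 genes were called higher and 3714 lower than at Day 16. With mitochondrial, ribosomal and 7SK RNAs removed before scaling, 1155 were higher and 2531 lower. Against Day 30 RPMI/B27 the deposited TPM gave 239 higher and 138 lower, removal of those RNAs 503 lower, and a fit of only these 2 groups 694 higher and 485 lower. Against RPMI_glcM/B27 they gave 8 higher and 3 lower, and 70 and 32 after removal. Leaving out single libraries gave 1690 to 1987 higher and 1712 to 2004 lower than Day 16, 836 to 1368 and 638 to 1126 against RPMI/B27, and 76 to 175 and 42 to 79 against RPMI_glcM/B27. The replicate block, which adds the replicate number to the fit although the numbers did not pair the libraries, gave 2127 higher and 2125 lower than Day 16, 1163 and 968 against RPMI/B27, and 140 and 84 against RPMI_glcM/B27. It moved no count of calls by over 1.5 times, and 1 of 4 numbers had a correlation over 0.1 between its Day 16 and HPLM/B27 libraries.

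Of 351 genes named by the rule, 313 were called in the main fit. Of these, 84 lost their call with unchanged sign on the TPM as deposited, and 35 after removal of abundant RNAs. The call was lost for 41 on leaving out some library and for 1 in limma-voom. Another 11 named genes, called with or without rescaling, changed sign with deposited TPM and are not among the 84. Their log2 fold changes included -0.34 for ACTN2, -0.10 for UQCRC2 and ATP5MC3, -0.091 for ESRRG and -0.070 for GJC1. Further values were -0.053 for LAMA2, -0.044 for ATP5PB, -0.038 for GPX4, -0.035 for HPRT1 and -0.031 for SOD2. Some genes called in neither also changed sign, such as ACTC1 and TPM1. No isoform pair was called with a pseudocount of 1 TPM. The causes were not tested. Genes with a mean under 10 reads (1948 tested, 133 called) are limited by depth.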

Other observations

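Lists of the circadian clock, of immediate early genes and of Wnt, Notch and YAP targets were chosen after values of these data were seen, and their counts are descriptions. Of 17 clock genes 9 were called higher and none lower by limma (none lower also at an unadjusted p under 0.05 or in limma-voom), with 4 and 0 on the TPM as deposited. Besides BHLHE40 and BHLHE41, the core activators ARNTL and NPAS2 rose. ARNTL stood at 3.39, 2.52, 3.01 and 3.04 rescaled TPM at Day 16 and 6.93, 5.41, 5.48 and 6.55 in HPLM/B27, a rise of 0.83 ± 0.10, and NPAS2 rose by 1.21 ± 0.15. PER3, a repressor of the loop, stood at 4.30, 10.5, 4.88 and 4.80 rescaled TPM at Day 16, with replicate 2 far above the rest, and at 11.8, 11.7, 12.8 and 12.1 in HPLM/B27.

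Immediate early genes, which many stimuli switch on within minutes, were called higher in 8 of 17 cases and lower in none by limma (none lower also at an unadjusted p under 0.05 or in limma-voom), with 3 and 0 on the TPM as deposited. The rises numbered 5 without HPLM/B27 replicate 2 or 3. JUN stood at 70.6, 57.3, 69.6 and 65.5 rescaled TPM at Day 16 and 129, 117, 112 and 107 in HPLM/B27, a rise of 0.82 ± 0.08, and its partner JUNB rose by 1.01 ± 0.17 and FOS by 1.10 ± 0.27.

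Of 23 Wnt, Notch and YAP targets 11 were called lower and none higher by limma (1 higher at an unadjusted p under 0.05, in limma-voom and without HPLM/B27 replicate 1), with 15 and 0 on the TPM as deposited. LEF1, a Wnt effector, stood at 20.3, 25.0, 19.9 and 17.6 rescaled TPM at Day 16 and 12.2, 9.83, 11.2 and 10.7 in HPLM/B27, without overlap. NOTCH3 fell by 1.10 ± 0.12, TCF7L2 fell by 0.72 ± 0.08 and LEF1 fell by 0.85 ± 0.15. CCN2, the connective tissue growth factor and a YAP target, stood at 95.0, 50.2, 102 and 94.1 and 31.6, 19.4, 35.5 and 52.2 rescaled TPM in the same order of groups, with Day 16 replicate 2 inside the HPLM/B27 range.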
